A study of Homo sapiens with 2 samples.

Results

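Chemokine ligands are small secreted or membrane-tethered proteins that direct the migration of leukocytes through G protein-coupled receptors. The ligands examined here are those of the CC, CXC, CX3C and XC families other than CXCL1, CXCL2, CXCL3, CXCL5, CXCL6 and CXCL8, the ligands of the neutrophil receptor CXCR2. The rule that chose them uses gene symbols only. The rule matched 39 names at 36 loci, of 24991 gene names present in both libraries. At 3 of these loci several names share a value, since neighbouring or duplicated genes were joined: CCL14 with CCL15, CCL3L1 with CCL3L3, and CCL4L1 with CCL4L2. PF4, PF4V1 and PPBP, chemokines with other symbols, fall outside the rule.

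RNA was sequenced from PLC cells, a human liver cancer line, in 2 forms: with the empty vector (EV, labelled wild type) and with over-expression of PRSS35, a secreted serine protease. The stable cells were made by lentiviral infection and puromycin selection, and no further treatment is labelled. The study combined these libraries with proteomics of the culture medium to ask which secreted proteins fell there without a loss of transcript. It followed the chemokine CXCL2 from there. Each condition has 1 library, so the differences below could not be checked against replicates and carry no p-value. Levels are FPKM, a fragment number corrected for the length of the transcript and for library size, each with the lower and upper bound that Cufflinks puts around it. These bounds, called the interval below, cover the error of counting and of assigning fragments in that library, not the variation from culture to culture. A ligand was called detected at an FPKM of 1 or more in either library. Changes are log2 ratios of PRSS35 to EV after 1 FPKM was added to each value, so that the change of a low gene comes out smaller than its plain ratio.

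PRSS35 itself had an FPKM of 0.643 in the EV library and 1836 in the PRSS35 library. All 8 markers examined for liver cancer cells of hepatocyte origin were detected, among them APOA1 and SERPINA1. ALB was the lowest of them, at 4.05 in EV cells and 5.21 in PRSS35 cells. Of 11 leukocyte markers, PTPRC, CD3E and MS4A1 were listed at 0 in both libraries, and 2 were detected, namely LYZ and CD68, whose locus is joined with MPDU1. None of 4 endothelial markers was detected, and of 5 markers of stellate cells and fibroblasts PDGFRB was, at 1.02 and 1.27. An FPKM of 0 can be a failed estimate in these tables, as some genes that every cell uses are also at 0, so such ligands are described as listed at 0.

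Chemokines act as a gradient that is held on heparan sulfate at cell surfaces and read by receptors on passing cells. Inflammatory members such as CCL2, CCL5 and the CXCR3 ligands CXCL9, CXCL10 and CXCL11 are typically induced by NF-kB and interferon signalling and recruit monocytes and T cells. Homeostatic members such as CXCL12, CCL19 and CCL21 place cells in tissues. CXCL16 and CX3CL1 differ from the rest in being made as transmembrane proteins, with a chemokine domain on a mucin-like stalk that ADAM10 and ADAM17 can cut to release it.

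Few of these ligands were listed at 1 FPKM or more in PLC cells, and CXCL16 held most of their summed FPKM. Of the 36 loci, 9 were detected (25%), when 41.6% of all names were. A further 7 were above 0 in at least 1 library and under 1 FPKM in both, and 20 were listed at 0 in both. In the EV library 9 ligands were detected, and 8 of these were also detected in the PRSS35 library. The exception is CCL26, which lay near the threshold. CXCL16 held 91.7% of the FPKM summed over all 36 loci in EV cells and 91.9% in PRSS35 cells. The remaining ligands together summed to 33.2 FPKM in EV cells and 33.6 in PRSS35 cells.

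**Figure D1:**
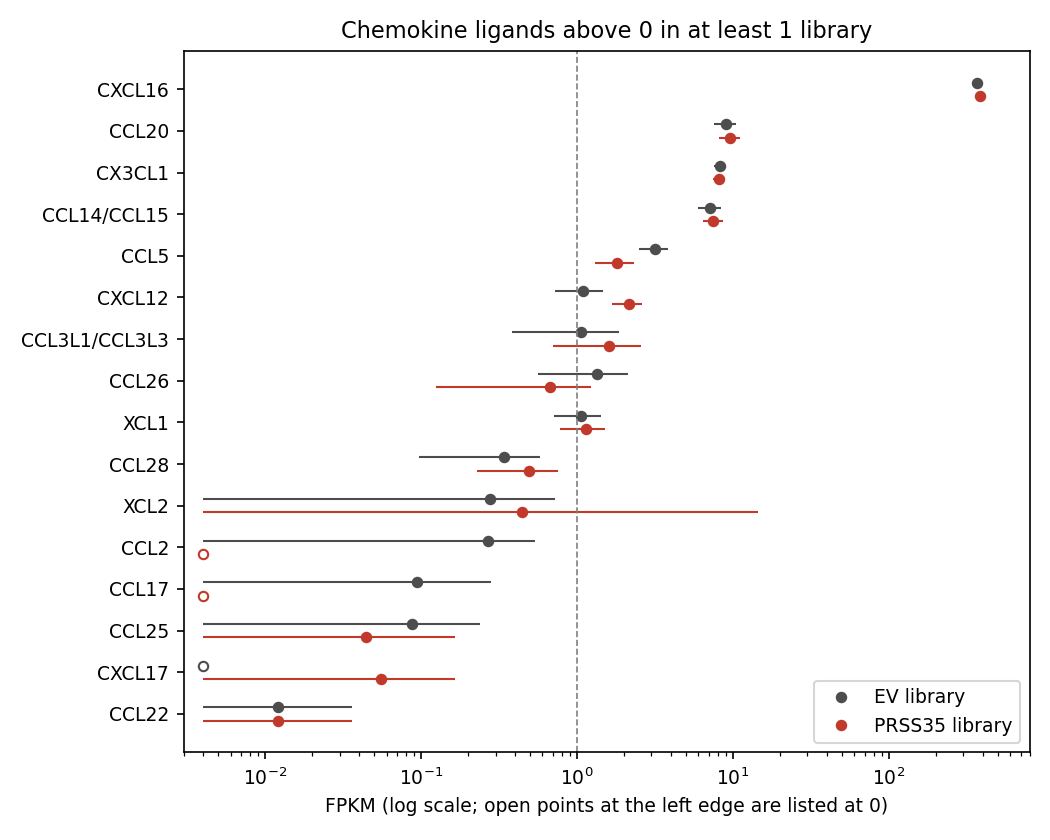
FPKM on a log scale of the 16 ligand loci above 0 in at least 1 library, in the EV (grey) and PRSS35 (red) libraries. Points are the deposited values, bars the deposited bounds (reaching the left edge where the lower bound is 0), open points values listed at 0, and the dashed line the detection threshold of 1 FPKM; CXCL16 lies far to the right of all others, and the bars of the libraries are apart for CCL5 and CXCL12 only.

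The transmembrane ligands were both detected, with overlapping intervals. CXCL16, the ligand of CXCR6, lies on chromosome 17 of hg19 from 4636824 to 4643223. Its FPKM was 366.7 (bounds 354.6 and 378.9) in EV cells and 382.6 (bounds 370.0 and 395.2) in PRSS35 cells, a log2 change of 0.06. It was 0.77 when each FPKM was divided by the sum for its library, a scaling that raises the median name from 0.07 to 0.69. CXCL16 ranked 357 of all names in EV and 338 in PRSS35, above 96.6% and 96.7% of detected names, and it was 40.7 and 39.8 times as abundant as the next ligand, CCL20. Its locus was assembled from the reads in EV and kept its annotation in PRSS35. The neighbouring genes MED11 and ZMYND15, on the opposite strand, overlap the CXCL16 locus by 80 and 96 bases at its ends in the GENCODE annotation, and both are listed at 0 in both libraries. The library kit is not described as strand-specific, so fragments from the overlaps cannot be assigned to a strand, and their part in the CXCL16 value was not tested. CX3CL1, the ligand of CX3CR1, lies on chromosome 16 from 57406373 to 57418960. Its FPKM was 8.20 (bounds 7.52 and 8.89) in EV cells and 8.10 (bounds 7.42 and 8.77) in PRSS35 cells. The log2 change of CX3CL1 was -0.02, or 0.63 with FPKM divided by its sum.

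CCL20 and the joined CCL14 and CCL15 were the other ligands above 5 FPKM. CCL20, which attracts CCR6-bearing dendritic cells and lymphocytes, lies on chromosome 2 from 228678558 to 228682280. Its FPKM was 9.01 (bounds 7.54 and 10.5) in EV cells and 9.61 (bounds 8.09 and 11.1) in PRSS35 cells. CCL14 and CCL15, which act on monocytes through CCR1 and are known as plasma chemokines, were joined with their readthrough transcript in both libraries, from 34310692 on chromosome 17. Their shared FPKM was 7.13 (bounds 5.93 and 8.34) in EV cells and 7.495 (bounds 6.41 and 8.58) in PRSS35 cells, and the shares of CCL14 and CCL15 in it cannot be told apart. The intervals overlap for both loci, and the log2 changes were 0.08 and 0.06, or 0.74 and 0.71 with FPKM divided by its sum.

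CCL5 and CXCL12 were the ligands whose intervals did not overlap. CCL5, an attractant of T cells and monocytes, lies on chromosome 17 from 34198496 to 34207377. It was lower in PRSS35 cells, with an FPKM of 3.18 (bounds 2.50 and 3.86) in EV cells and 1.81 (bounds 1.30 and 2.32) in PRSS35 cells, a ratio of 0.569 and a log2 change of -0.57. CXCL12, the ligand of CXCR4 and the scavenging receptor ACKR3, lies on chromosome 10 from 44865601 to 44880545. It was higher in PRSS35 cells, with an FPKM of 1.09 (bounds 0.719 and 1.46) in EV cells and 2.14 (bounds 1.67 and 2.61) in PRSS35 cells, a ratio of 1.96 and a log2 change of 0.59. Both are low transcripts. The CCL5 interval is as wide as counting error on about 88.0 fragments in EV and 50.7 in PRSS35 would give, and the CXCL12 interval as on about 34.4 and 82.8.

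These differences are of a size that many other genes showed. Intervals did not overlap for 2 of the 9 detected ligands, when they did not for 39.2% of the 10397 detected names. Among the 5355 detected names with a mean FPKM under 10 the share was 28.5%, with 19.9% higher and 8.63% lower in PRSS35 cells. In the same range of expression, 6.05% of names had a log2 change at or above that of CXCL12, and 5.38% had one at or below that of CCL5. The CXCL12 locus was assembled from the reads in EV only, while CCL5 kept its annotation in both libraries. Of 156 names under 10 FPKM that were likewise assembled in EV only, were above 0 in both libraries and had separate intervals, 60 were higher in PRSS35 cells (38.5%). The part of assembly in the CXCL12 value was not tested.

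Of the 9 detected ligands, 0 passed 2-fold upwards and 0 downwards. At this threshold 444 of all 10397 detected names differed (4.27%), 2.15% higher and 2.12% lower. When FPKM was divided by its sum over all loci, 12% of names were higher and 1.35% were lower, and CXCL12 was among the higher, with a log2 change of 1.11 against 0.69 for the median name. The median log2 change of the 9 ligands was 0.06, against 0.07 for all detected names. Their values were higher in PRSS35 cells for 6 ligands and lower for 3 (CCL5, CCL26 and CX3CL1), a split that became 7 and 2 with FPKM divided by its sum and 3 and 6 after centring on the median name.

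**Figure D2:**
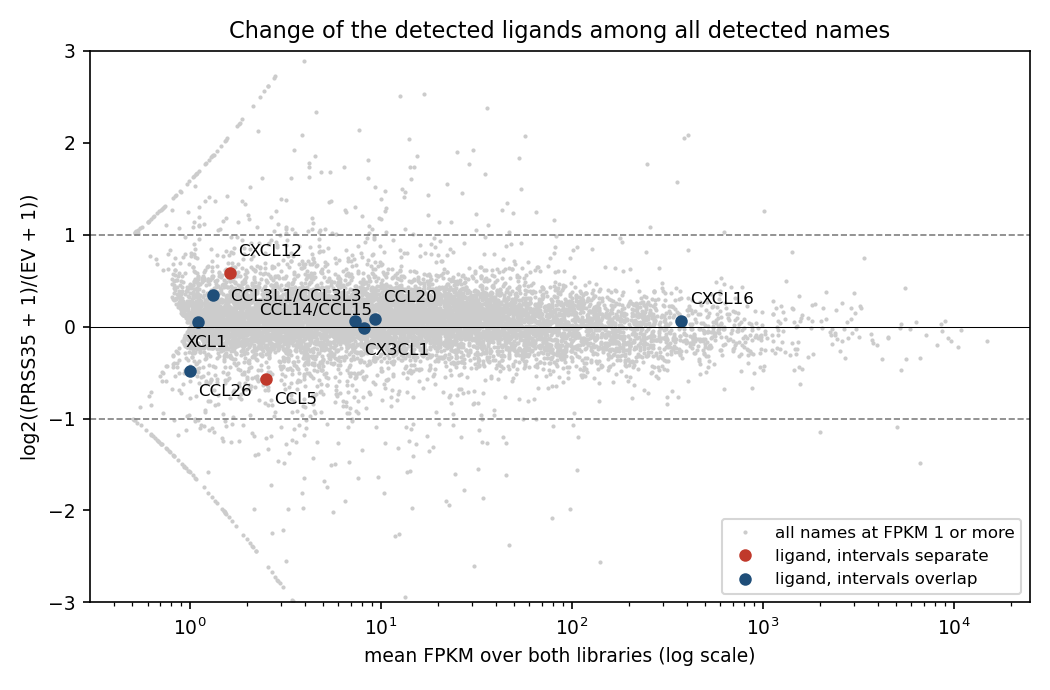
Log2 change between the PRSS35 and EV libraries (vertical axis, pseudocount of 1 FPKM) against mean FPKM (log scale) for all 10397 names at an FPKM of 1 or more in either library (grey) and the 9 detected ligands (red where the intervals are separate, blue where they overlap). Dashed lines mark 2-fold, 85 grey names lie beyond the plotted range of 3, and all 9 ligands lie between the dashed lines, with CXCL12 highest at 0.59 and CCL5 lowest at -0.57.

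The remaining detected ligands were close to the threshold of 1 FPKM. CCL26 (eotaxin-3), a CCR3 ligand that attracts eosinophils, had an FPKM of 1.34 (bounds 0.562 and 2.11) in EV cells and 0.673 (bounds 0.124 and 1.22) in PRSS35 cells. The ratio of PRSS35 to EV was 0.504, but the intervals, as wide as on about 11.9 and 6 fragments, overlap. CCL3L1 and CCL3L3, copies of the macrophage inflammatory chemokine CCL3, are joined at each of 2 loci on chromosome 17, whose summed FPKM was 1.05 in EV cells and 1.60 in PRSS35 cells. The locus starting at 34522268 gave 0.895 and 1.31 of this, and the copy starting at 34623842 gave 0.160 and 0.289. These copies are near-identical to each other and alike to CCL3, which is listed at 0 in both libraries, so the assignment of fragments among them is uncertain. XCL1, the ligand of XCR1 on cross-presenting dendritic cells, had an FPKM of 1.06 (bounds 0.706 and 1.42) in EV cells and 1.14 (bounds 0.773 and 1.502) in PRSS35 cells, levels that did not separate.

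Under 1 FPKM, CCL28 was the ligand with bounds above 0 in both libraries. CCL28, a mucosal ligand of CCR10 and CCR3, had an FPKM of 0.339 (bounds 0.0969 and 0.580) in EV cells and 0.494 (bounds 0.228 and 0.759) in PRSS35 cells. The other 6 had a lower bound of 0 wherever they were above 0. CCL2, the main attractant of monocytes through CCR2, was at 0.270 in EV cells, a value whose interval is as wide as on about 4.00 fragments, and was listed at 0 in PRSS35 cells. CCL17 in EV cells (0.0939), CXCL17 in PRSS35 cells (0.0553) and CCL22 in both (0.0120) had the interval width of 1 fragment, and CCL25 was at 0.0878 and 0.0440. For CCL22 the FPKM worth of 1 fragment had a ratio of 1.00 between EV and PRSS35. XCL2, nearly identical to XCL1, was at 0.275 and 0.444, with bounds from 0 to 14.4 in the PRSS35 library, where its locus was assembled from the reads.

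The 20 loci listed at 0 in both libraries hold 21 ligand names. All 3 CXCR3 ligands, CXCL9, CXCL10 and CXCL11, were among them, as were CXCL13, which guides B cells into follicles, and the epithelial chemokine CXCL14. Of the 16 loci grouped here as inflammatory CC ligands, which mainly attract monocytes, T cells and eosinophils, 11 were listed at 0, namely CCL3, CCL4, CCL4L1 with CCL4L2, CCL7, CCL8, CCL11, CCL13, CCL16, CCL18, CCL23 and CCL24. CCL16, a chemokine made in normal liver, was thus at 0 beside the joined CCL14 and CCL15. Of the 9 loci of other CC ligands, CCL1, CCL19, CCL21 and CCL27 were listed at 0. At 17 of the 20 loci the annotated locus was kept in both libraries, and at the other 3 (CCL23, CCL27 and CCL4L1 with CCL4L2) the locus was assembled from reads in 1 or both.

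Chemokine genes lie in clusters that arose by duplication, and detection was uneven within them. The 36 loci, without the CXCR2 ligands, fall into groups on the same chromosome whose starts lie at most 2 Mb apart. The largest, on chromosome 17 from 32582296 to 34641846, holds 15 loci, of which CCL5, the joined CCL14 and CCL15 and the joined CCL3L1 and CCL3L3 were detected, while 11 were listed at 0. On chromosome 16, CX3CL1 was detected between CCL22 and CCL17, which had values of 1 fragment at most by the width of their intervals. On chromosome 4, CXCL9, CXCL10, CXCL11 and CXCL13 were all listed at 0, as were CCL19, CCL21 and CCL27 on chromosome 9. The CXCR2 ligand CXCL2, also on chromosome 4, was not used to form the groups. It was at 1.72 in EV cells and 1.27 in PRSS35 cells, with overlapping intervals. In the 6 groups of several loci 6 of 29 loci were detected, and of the 7 loci that stand alone 3 were, namely CXCL12, CXCL16 and CCL20. The share over all names was 41.6%, and the 7 loci that stand alone are too few to set against the others.

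**Figure D3:**
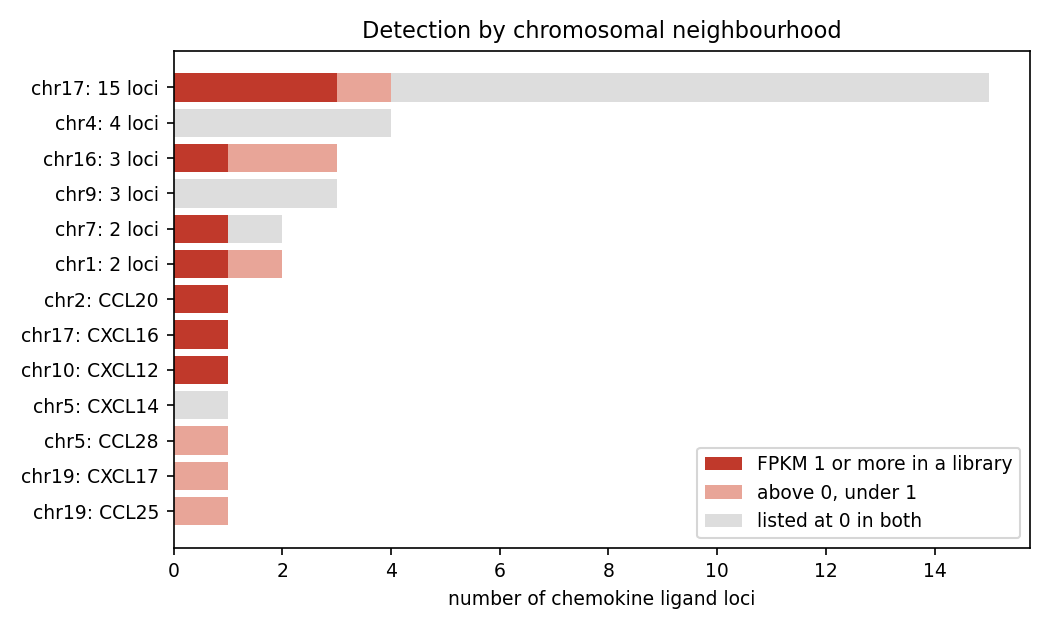
Number of chemokine ligand loci, without the CXCR2 ligands, in each chromosomal group (horizontal axis), split into those at an FPKM of 1 or more in a library (red), those above 0 and under 1 (pink) and those listed at 0 in both (grey). The group of 15 loci on chromosome 17 has 3 detected loci, and the groups on chromosomes 4 and 9 have 0.

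The study describes a pair of adjacent lysines as the core of the motif that PRSS35 cuts, so the annotated coding sequences of the ligands were searched for adjacent lysine codons in frame (AAA or AAG followed by AAA or AAG, on the coding strand). Such a pair is a feature of the sequence and not a measured cleavage. Among the 36 ligand names with a usable coding sequence in the annotation, 18 hold at least 1 pair (50%), and of 1705 genes of up to 150 codons 40.8% do. Of the 10 names with a coding sequence at detected loci, CCL20, CCL15 and CCL26 hold a pair in the canonical transcript. Only that transcript was searched for each gene. CCL15 shares its value with CCL14, which has no pair. The most abundant ligand, CXCL16, has 9 lysine codons and no pair, and CX3CL1 has 12 lysine codons among 397 and no pair, when 71.0% of all genes hold one. CXCL12, CCL14, CCL3L3 and XCL1 have no pair in the canonical transcript either, and their other transcripts were not searched. For CCL5 the canonical transcript has 154 codons, more than most other CC ligands, and no pair. Other CCL5 transcripts were not searched, so whether the usual CCL5 protein holds a pair is left undecided here. The counts above take CCL5 as a name without a pair, by this transcript only. The ligand with the most is CXCL9, with 8 overlapping or separate pairs, and it is listed at 0 in both libraries. The search covered the whole coding sequence and not the mature protein only, and 1 of the CXCL9 pairs is at codons 2 and 3. The stretches around pairs of these ligands are shown beside that of CXCL2, the study's substrate, to compare their surroundings. They are given 5′ to 3′ on the coding strand with 1 pair of lysine codons in capitals, while other lysine codons in the stretch are in lower case. CXCL2 is on the minus strand at chr4:74964329-74964358 (codons 94 and 95), CCL20 on the plus strand at chr2:228681024-228681053 (codons 69 and 70), CCL15 on the minus strand at chr17:34324812-34324841 (codons 106 and 107) and CCL26 on the minus strand at chr7:75399071-75399100 (codons 70 and 71), all on GRCh37.
CXCL2: tcgcccatggttAAGAAAatcatcgaaaag
CCL20: tttcacacaaagAAAAAGttgtctgtgtgc
CCL15: caggattgcatgAAAAAGctgaagccctac
CCL26: accaaaagaggcAAGAAAgtctgtacccat
CCL20 has 3 pairs in all, of which the one shown overlaps another by 1 codon, so that codons 68, 69 and 70 are all lysine, and CCL15 and CCL26 have 2 pairs each. Among the detected ligands, those with a pair in the transcript searched were thus CCL20, CCL15 and CCL26. CCL20 was at 9.01 and 9.61 FPKM, CCL15 lay within its joined locus, and CCL26 was near 1. This list may be incomplete, as only the canonical transcript of each gene was searched. CCL5, at 3.18 in EV cells and 1.81 in PRSS35 cells, is left undecided. CXCL2 was at 1.72 in EV cells and 1.27 in PRSS35 cells.

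Receptors for these ligands were nearly all at or close to 0 in PLC cells. Of 22 chemokine receptors, 2 were detected, 6 were above 0 and under 1 FPKM, and 14 were listed at 0 in both libraries, CXCR6, CX3CR1 and XCR1 among them. CCR10, the receptor of CCL27 and CCL28, had an FPKM of 1.97 (bounds 1.45 and 2.49) in EV cells and 2.43 (bounds 1.84 and 3.01) in PRSS35 cells. CXCR4, the receptor of CXCL12, had 1.501 (bounds 1.12 and 1.89) and 1.52 (bounds 1.14 and 1.91). Both pairs of intervals overlap. CCR6, the receptor of CCL20, was at 0.0757 and 0.140.

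Of 12 genes that process, sulfate or present chemokines, 11 were detected, none differed by 2-fold, and 4 were higher and 1 was lower in PRSS35 cells with separate intervals. Over all detected names 39.2% had separate intervals and 4.27% differed by 2-fold, so these counts are no result about the list. The sheddases ADAM10 (2.95 and 3.09) and ADAM17 (2.89 and 3.31) had overlapping intervals. The heparan sulfate carriers SDC1 and SDC2 were higher, at 102.2 and 117.7 and at 16.8 and 19.7, and SDC4 was lower, at 75.3 and 68.4, though with FPKM divided by its sum its log2 change was 0.57, still below the 0.69 of the median name. EXT1, which extends heparan sulfate chains, was at 8.76 and 12.4, and the tyrosine sulfotransferase TPST1, whose family modifies the N-termini of chemokine receptors, at 10.1 and 13.9. The loci of SDC2, SDC4 and EXT1 were assembled from the reads in EV only, and that of SDC1 in PRSS35 only. The part of assembly in these values was not tested. DPP4, a protease that trims the N-termini of several chemokines, was at 0.0263 and 0.00876.

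Of 14 genes of the pathways that induce chemokines, 13 were detected, none differed by 2-fold, and with separate intervals 2 were higher and 2 were lower in PRSS35 cells, again beside 39.2% and 4.27% of all detected names. The NF-kB subunit RELA was lower, at 79.9 and 67.0, as was the interferon pathway factor IRF9, in a locus joined with RNF31, at 93.9 and 86.3. With FPKM divided by its sum the log2 changes of RELA and IRF9 were 0.45 and 0.58, still below that of the median name. STAT3 (14.5 and 17.6) and the interferon-gamma receptor subunit IFNGR2 (23.4 and 28.0) were higher. JAK2, the kinase next to that receptor, was at 0.0317 and 0.0443. The IFNGR2 locus was assembled from the reads in PRSS35 only, and the part of assembly in its value was not tested. The median log2 change was 0.04 for these genes and 0.13 for the processing genes, against 0.07 for all detected names.

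**Figure D4:**
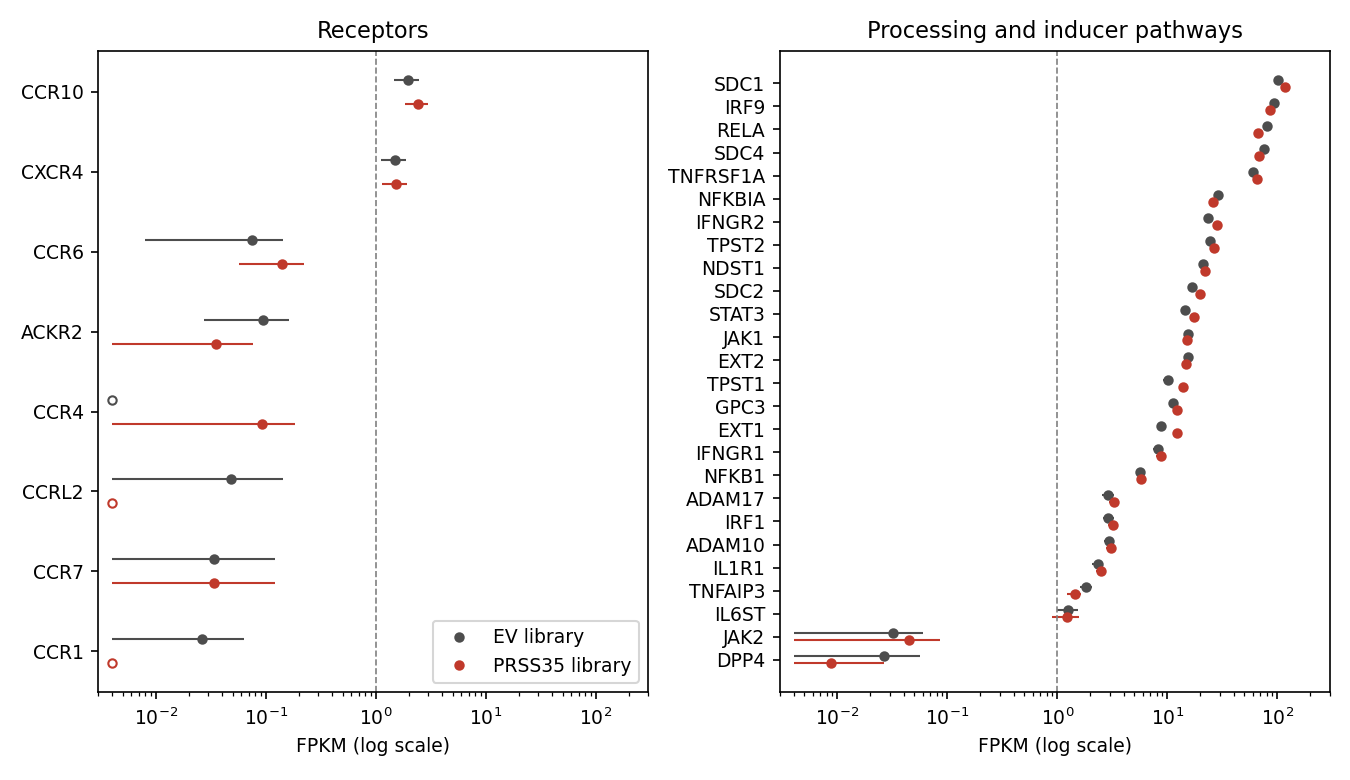
FPKM on a log scale of the chemokine receptors (left) and of the genes of chemokine processing and of the inducing pathways (right) that are above 0 in at least 1 library, in the EV (grey) and PRSS35 (red) libraries, with the deposited bounds as bars and values listed at 0 as open points at the left edge. Among the receptors CCR10 and CXCR4 pass the dashed line at 1 FPKM, whereas all genes on the right do so except JAK2 and DPP4.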

How the data were processed

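Total RNA of 2 PLC libraries, 1 per condition, was sequenced on an Illumina HiSeq2500 by a sequencing company, per the study's methods. The reads were aligned by the authors to hg19 using TopHat2 (2.1.0), and transcripts were assembled and estimated with Cufflinks (the submitters' processing notes name Cuffdiff 2.2.1). The annotation and the options are not given in the sources used here. The authors deposited 1 table per library, with FPKM and its lower and upper bounds for each locus. No read counts were used, and the depth of a value is known only through its bounds.

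Loci on alternate haplotypes were left out, and FPKM and bounds of loci with the same name were summed. A log2 change used a pseudocount of 1 FPKM, a 2-fold threshold was applied to names at an FPKM of 1 or more in either library, and an interval was called separate when the bounds did not overlap. The fragments behind an interval were taken as (2 × FPKM / (upper bound − FPKM)) squared, given for low values only. They are not counts. All 39 ligand names overlap the gene of that name in GENCODE v44lift37 on GRCh37, the assembly of hg19, which gave strands and coding sequences. Of its canonical coding sequences, 19251 were usable and 302 were not. The named genes were all ligands above 0, those listed at 0 by name, the receptors detected, and from the pathway lists the genes with separate intervals. The other pathway genes named, the cell type markers named, MED11 and ZMYND15 were chosen with their values in view. The ligands and lists were chosen with earlier results of these data known. From the lists, 2 genes are not reported here. The tools were pandas 2.3.3 and numpy 2.4.6 under Python 3.11.15, with matplotlib 3.10.9 for plots.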

Additional observations from a re-analysis of the deposited data

How the results depend on the processing

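Division of FPKM by the sum over all loci was the setting that moved the median of the ligands most. It moved the median log2 change of all detected names from 0.07 to 0.69 and that of the 9 ligands to 0.71, and with it 1 ligand, CXCL12, was higher by 2-fold (log2 change 1.11). The log2 change of CCL5 was then -0.08, below the median name as before, and those of CX3CL1, CXCL16, CCL20 and the joined CCL14 and CCL15 were 0.63, 0.77, 0.74 and 0.71. CCL26 moved more with a pseudocount of 0.1 FPKM, from -0.48 to -0.89, its intervals overlapping. With pseudocounts of 0.1 and 5 FPKM, upper quartile scaling, centring on the median name and the highest row per name, 0 ligands differed by 2-fold, CCL5 stayed lower and CXCL12 higher in PRSS35 cells. At a 1.5-fold threshold, with 1 FPKM added to each value, 1 ligand differed, CXCL12. Without that addition the plain ratios of CCL5 (0.569), CCL26 (0.504) and CCL3L1 with CCL3L3 (1.52) pass this threshold too. Of 54 recomputed changes of single ligands, 48 stayed within the range their bounds allow, and 6 left it, all by dividing by the sum. At a threshold of 5 FPKM 4 ligands were detected, and 12 at 0.1 FPKM. No paired analysis was possible because there is 1 library for EV and 1 for PRSS35, and for the same reason no replicate could be left out. Low values limit the changes of CCL26, CCL3L1 with CCL3L3, and all ligands under 1 FPKM.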
